A study of Homo sapiens with 8 samples.

Results

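Cholesterol synthesis genes and the sterol sensor gene that is switched with them were followed across 8 cultures of human breast cells. The set holds 8 genes chosen by name: HMGCS1, SQLE, INSIG1, IDI1, FDPS, FDFT1, DHCR7 and SC5D, which the array annotation lists under its older symbol SC5DL. For 6 of the 8 the annotation names a probe, out of 16922 named genes on the array. FDPS and FDFT1 were not analysed here.

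Messenger RNA was measured on Illumina bead arrays, 1 array for each of 8 groups. SUM1315, MDA-MB231 and SUM159, 3 basal-like breast cancer lines, were profiled untransfected. A stable transfectant of SUM159 carried IRX5, a homeobox transcription factor, and a control transfectant carried LacZ, the bacterial beta-galactosidase gene. HMLE, a line of immortalized mammary epithelial cells, was profiled after stable transfection with LacZ, with Gcnt2, a glycosyltransferase, or with Foxq1, a forkhead transcription factor. No untransfected HMLE array was analysed here, so all HMLE arrays carry a transgene. The promoter that drives each transgene, and whether a culture was 1 clone or a pool, are not stated in the labels. The stated purposes were to find genes downstream of transcription factors including Foxq1 and IRX5, and to compare the basal-like lines.

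Cells make cholesterol from acetyl-CoA through the mevalonate pathway and then through a sterol branch that starts with squalene. The transcription factor SREBP2 drives these genes when sterols in the endoplasmic reticulum membrane run low; when sterols are plentiful, INSIG proteins hold the SREBP escort SCAP in that membrane. INSIG1 is itself an SREBP target, so its messenger RNA follows the pathway it restrains. SREBP binds weakly alone and works at promoters together with the factors NF-Y and Sp1.

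The promoters are shown because the data below compare genes known to share this control. For 5 of the 6 measured genes RefSeq (GRCh38.p14) gave a promoter window, 250 bases before to 50 after a transcription start, and SQLE is named only. Capitals mark the NF-Y box CCAAT on either strand (ATTGG on the strand shown), and each sequence runs 5′ to 3′ on the strand of its gene.
HMGCS1: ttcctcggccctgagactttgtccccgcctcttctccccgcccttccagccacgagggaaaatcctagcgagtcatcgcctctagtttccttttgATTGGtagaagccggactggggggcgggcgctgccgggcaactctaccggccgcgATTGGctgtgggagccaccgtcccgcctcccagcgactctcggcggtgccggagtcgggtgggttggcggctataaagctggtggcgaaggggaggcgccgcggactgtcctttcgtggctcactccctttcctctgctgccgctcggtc
INSIG1: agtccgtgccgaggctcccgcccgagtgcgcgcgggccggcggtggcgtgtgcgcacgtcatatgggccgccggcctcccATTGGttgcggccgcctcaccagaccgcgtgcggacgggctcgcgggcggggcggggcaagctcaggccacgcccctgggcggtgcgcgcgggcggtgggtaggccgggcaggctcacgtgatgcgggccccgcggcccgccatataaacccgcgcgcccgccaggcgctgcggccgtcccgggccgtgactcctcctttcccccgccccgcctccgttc
IDI1: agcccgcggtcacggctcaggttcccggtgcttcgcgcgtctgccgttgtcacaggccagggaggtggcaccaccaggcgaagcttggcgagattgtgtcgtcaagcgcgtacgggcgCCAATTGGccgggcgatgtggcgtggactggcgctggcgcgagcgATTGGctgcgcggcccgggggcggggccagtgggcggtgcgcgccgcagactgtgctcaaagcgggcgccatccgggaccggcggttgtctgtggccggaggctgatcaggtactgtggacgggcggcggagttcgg
DHCR7: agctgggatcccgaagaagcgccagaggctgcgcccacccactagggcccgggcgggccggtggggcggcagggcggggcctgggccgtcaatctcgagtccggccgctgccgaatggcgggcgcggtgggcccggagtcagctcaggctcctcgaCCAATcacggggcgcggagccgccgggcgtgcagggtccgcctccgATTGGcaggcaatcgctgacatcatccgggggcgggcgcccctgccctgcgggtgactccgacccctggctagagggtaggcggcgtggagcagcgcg
SC5D: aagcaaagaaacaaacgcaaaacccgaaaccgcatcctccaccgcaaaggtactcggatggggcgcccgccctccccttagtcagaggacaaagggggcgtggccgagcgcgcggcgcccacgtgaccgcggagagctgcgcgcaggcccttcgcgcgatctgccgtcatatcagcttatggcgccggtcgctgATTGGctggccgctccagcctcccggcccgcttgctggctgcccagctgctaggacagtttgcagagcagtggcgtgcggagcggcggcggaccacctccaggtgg
These windows lie at chr5:43313363-43313662 on the minus strand (HMGCS1), chr7:155297628-155297927 on the plus strand (INSIG1), chr10:1048837-1049136 on the minus strand (IDI1), chr11:71448344-71448643 on the minus strand (DHCR7) and chr11:121292521-121292820 on the plus strand (SC5D). Where a gene had several windows, the one with the most NF-Y boxes is shown, so these numbers of boxes are no result. HMGCS1 and DHCR7 hold 2 boxes each, INSIG1 and SC5D 1 each, and IDI1 holds 3, of which a pair overlap as one palindrome. The windows not shown hold 0 boxes (HMGCS1), 0 and 2 (IDI1), 0 (DHCR7) and 1 (SC5D). Over all their listed starts, 7 of the 10 promoters of the 5 genes held the NF-Y box, as did 34.6% of the 35116 promoters of the table. Some of the 10 windows overlap, and both SC5D windows hold the same NF-Y box, counted once for each. The Sp1 box GGGCGG, searched on both strands, was in 9 of the 10, and in 45.0% of all promoters. The form TCACNCCAC of the sterol regulatory element, the SREBP site, was in 0 of the 10 on either strand and in 1.13% of all promoters. It was found in the promoter of SREBF2, the gene for SREBP2 itself. A match describes letters in a window and no match says only that these letters are not in it.

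Each measured gene had 1 probe, and all 6 probes lay above the detection limit, an intensity of 141, in all 8 arrays. Values below are the deposited normalized intensity, a linear scale that allows comparison of 1 probe between arrays but not of different probes. Folds and log2 differences are of background-corrected values, so they exceed the ratio of the intensities, most for dim probes. Each group is 1 array, so differences carry no replicate error, no test was made, and the number of arrays limits the precision. As a yardstick, LacZ against untransfected SUM159 gave the spread of genes of like intensity, taken at percentile 99; these arrays differ by the transgene and are not replicates.

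HMGCS1, the synthase that makes hydroxymethylglutaryl-CoA at the entry of the mevalonate pathway, read 1912 in SUM1315, 1253 in MDA-MB231, 1254 in SUM159, 769.6 in the array labelled IRX5, 1432 in SUM159 LacZ, 5095 in HMLE LacZ, 5298 in HMLE Gcnt2 and 2847 in the array labelled Foxq1. All 3 HMLE arrays lay above all 5 cancer line arrays, and the array labelled IRX5 was lowest, 7.13-fold under the highest. Between neighbours in that order the widest step was 1.80-fold, from HMLE LacZ down to the array labelled Foxq1.

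IDI1, the isomerase that interconverts the isoprenoid building blocks, had the smallest span of the 6 genes, 2.95-fold. It read 462 in SUM1315, 664 in MDA-MB231, 520.1 in SUM159, 382 in the array labelled IRX5, 587 in SUM159 LacZ, 1048 in HMLE LacZ, 1068 in HMLE Gcnt2 and 1041 in the array labelled Foxq1. The HMLE arrays were close to each other, and a 1.59-fold step separated the lowest of them from MDA-MB231, the highest cancer line.

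SQLE, squalene epoxidase, a rate-limiting enzyme of the sterol branch, had the widest span, 13.3-fold. Its probe read 3554 in SUM1315, 1059 in MDA-MB231, 2035 in SUM159, 1694 in the array labelled IRX5, 2544 in SUM159 LacZ, 9342 in HMLE LacZ, 13744 in HMLE Gcnt2 and 7311 in the array labelled Foxq1. The HMLE arrays again lay above all cancer lines, by a step of 2.07-fold to SUM1315, and MDA-MB231 was lowest.

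SC5D, the sterol desaturase that acts shortly before the end of the pathway, departed from this order. It read 469 in SUM1315, 1292 in MDA-MB231, 720.04 in SUM159, 832 in the array labelled IRX5, 1040.2 in SUM159 LacZ, 2106 in HMLE LacZ, 1745 in HMLE Gcnt2 and 906 in the array labelled Foxq1. The last value lay under MDA-MB231 and SUM159 LacZ, so the HMLE and cancer line arrays overlapped. SUM1315 was lowest, 1.57-fold under untransfected SUM159.

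DHCR7, the reductase that makes cholesterol from its last precursor, read 1055 in SUM1315, 949 in MDA-MB231, 887 in SUM159, 543 in the array labelled IRX5, 995 in SUM159 LacZ, 2116 in HMLE LacZ, 1705 in HMLE Gcnt2 and 2589.5 in the array labelled Foxq1. The array labelled Foxq1 was highest for this gene, and the other 2 HMLE arrays came next. Its widest step, 1.67-fold, set the array labelled IRX5 below untransfected SUM159.

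INSIG1, the sterol sensor, read 902 in SUM1315, 272 in MDA-MB231, 154 in SUM159, 144 in the array labelled IRX5, 297 in SUM159 LacZ, 592 in HMLE LacZ, 455 in HMLE Gcnt2 and 643 in the array labelled Foxq1. SUM1315, a cancer line, was highest, above all HMLE arrays, and the array labelled IRX5 lay just above the detection limit. The span was 7.72-fold after background correction, and 6.27 as a ratio of the deposited intensities.

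**Figure D1:**
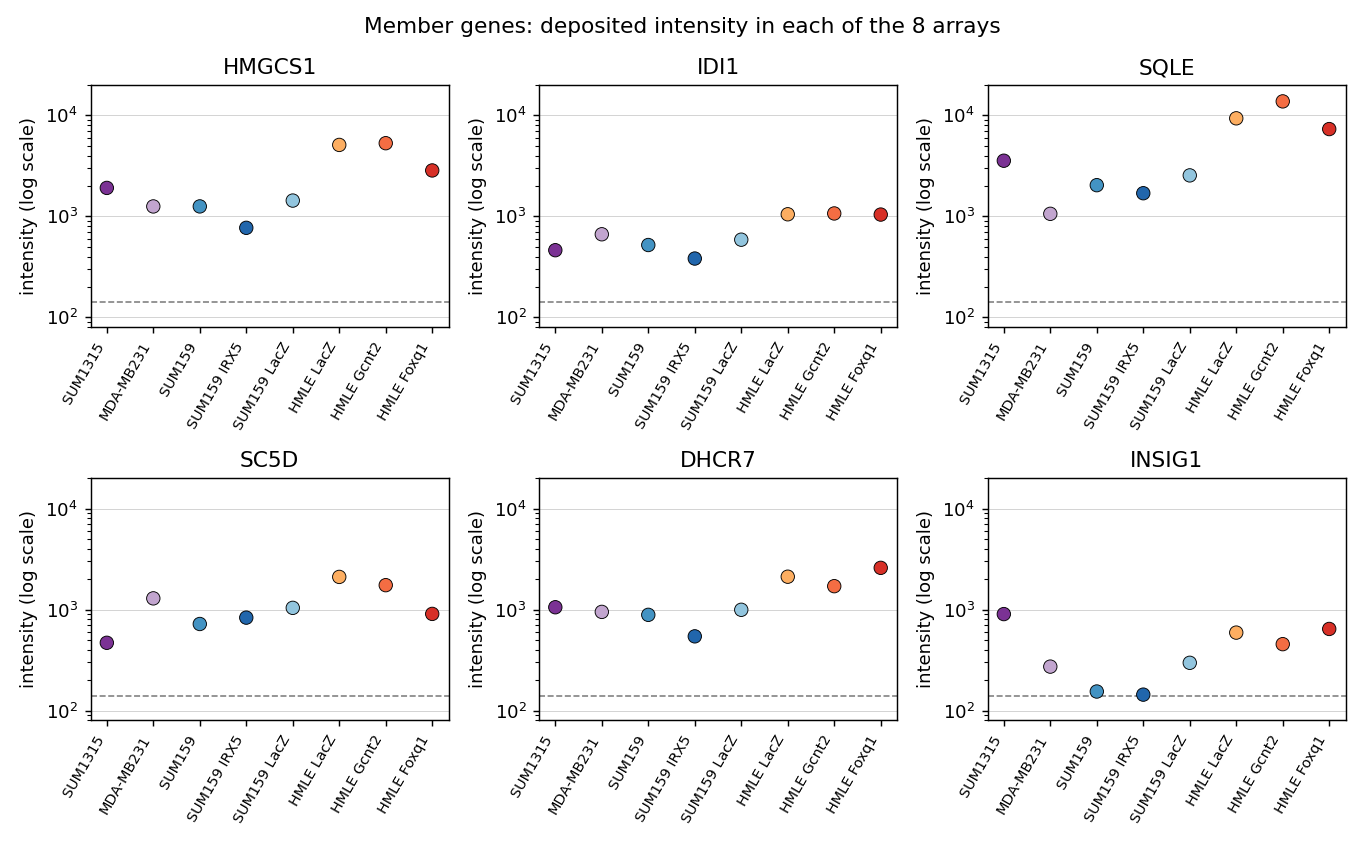
Deposited intensity (log scale) of the 6 measured genes, 1 panel per gene and 1 point per array, with the detection limit of 141 as a dashed line. The HMLE points lie above the cancer line points for HMGCS1, IDI1, SQLE and DHCR7, SC5D overlaps through the array labelled Foxq1, and INSIG1 is highest in SUM1315.

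Measured against each gene's own mean over the 8 arrays, the 6 genes averaged 1.02 higher in HMLE LacZ on the log2 scale, 0.96 higher in HMLE Gcnt2 and 0.68 higher in the array labelled Foxq1. The cancer line averages were -0.10 in SUM1315, -0.29 in SUM159 LacZ, -0.49 in MDA-MB231, -0.71 in untransfected SUM159 and -1.07 in the array labelled IRX5. The genes did not follow this average equally. As the root mean square (RMS) distance on the log2 scale from the mean of the other 5, DHCR7 lay at 0.313, HMGCS1 at 0.318 and IDI1 at 0.377, while SQLE lay at 0.735, SC5D at 0.775 and INSIG1 at 0.787. The closest pair was IDI1 and DHCR7, 0.285 apart, and the farthest INSIG1 and SC5D, 1.18 apart. These distances describe 8 arrays that share cell lines.

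The first comparison set the HMLE arrays against the cancer line arrays. Of the 6 genes, 4 (HMGCS1, SQLE, IDI1 and DHCR7) were higher in all 3 HMLE arrays than in all 5 cancer line arrays, an order shown by 7.63% of the 12758 genes above the limit somewhere. None of the 6 was lower in all 3, against 7.11% of genes. With the array labelled Foxq1 left out, an alternative added after the data were seen, SC5D joined them and made 5 of 6, against 12.2% of 12639 genes. None of the counts of order, here or for the array labelled IRX5, was among the planned results. The 5 cancer line arrays include SUM159 in 3 forms, so they are not independent lines.

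Cell line and cell type cannot be told apart in this contrast, and most epithelial markers of the arrays moved with it. Of 8 epithelial marker genes, 6 showed the same order as the 4 cholesterol genes. Mesenchymal markers did not move together: of 8, FN1 alone showed that order and ZEB1 alone the reverse. In SUM159 LacZ against HMLE LacZ, 3 of these 8 were at least 2-fold higher and 3 as much lower. KRT5 and KRT14, keratins of basal epithelium, read between 8303 and 21430.0 in HMLE and between 93.8 and 113 in all cancer line arrays, so basal keratin signal was not detected in lines labelled basal-like. CDH1 (E-cadherin) read 8097, 13304 and 1191 in HMLE LacZ, Gcnt2 and Foxq1 and at most 175 in the cancer lines. Markers of other cell types were mixed. Of 5 endothelial markers VWF, CDH5 and TEK lay below the limit in all arrays, and PECAM1 read 187 to 282. The leukocyte gene PTPRC reached 146 by its brightest probe and CD3E lay below the limit, while CD14 and CD68 reached 1574 (array labelled Foxq1) and 1893 (SUM1315) and were above it in all arrays. Of adipocyte markers PLIN1 lay below the limit and ADIPOQ reached 142, while LEP read 305 to 459 in all arrays and CIDEC reached 655 in the array labelled IRX5. The part of these differences in the result was not tested.

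SUM159 and HMLE could be compared with the same transgene, LacZ. All 6 genes were lower in SUM159 LacZ, with a median log2 difference of -1.09 against 0.05 over all genes. At least 2-fold lower were 5 of the 6, against 8.33% of 11362 genes, and none was 2-fold higher, against 7.86%. SQLE was 3.71-fold lower and HMGCS1 3.61-fold, and these exceeded percentile 99 of the yardstick pair (1.47 and 1.39 on the log2 scale). DHCR7 was 2.16-fold lower, SC5D 2.06-fold and IDI1 1.83-fold, and INSIG1 was at -1.07 on the log2 scale, all within it.

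The other enzymes of the pathway had in part the same order, which 7.63% of all genes showed. Beside the members, 11 enzymes of the mevalonate pathway and the sterol branch had a named probe, and 6 of them were higher in all HMLE arrays than in all cancer line arrays: MVK and MVD, a kinase and a decarboxylase of the mevalonate pathway, LSS, which closes the sterol ring, CYP51A1 and MSMO1, which remove methyl groups from it, and EBP, a sterol isomerase. MSMO1 read 5534, 4688 and 3955 in HMLE LacZ, Gcnt2 and Foxq1 and between 877 and 1903 in the cancer lines by its brightest probe. Another MSMO1 probe read 2518, 1875 and 144 in these HMLE arrays and between 235 and 768 in the cancer lines. By that probe the array labelled Foxq1 was lowest, so the order did not hold. LSS was close, with 1703 to 2898 in HMLE against 1686 in SUM1315, the highest cancer line. A dimmer LSS probe read 148 to 198 in HMLE and 167 to 228 in the cancer lines and did not show the order. In SUM159 LacZ against HMLE LacZ, 15 of the 16 enzymes, members included, were lower, with a median of -0.87 against 0.05 over all genes. The exception, TM7SF2, a sterol reductase, was 1.07 higher on the log2 scale. At least 2-fold lower were 6 of the 16, against 8.33% of all genes, and TM7SF2 alone was as much higher, against 7.86%. Of the 6, HMGCS1, SQLE, SC5D and DHCR7 are members already counted above, and MSMO1 and NSDHL are not members.

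The same count over the genes around the enzymes stands beside the 7.63% of all genes. Of 7 sterol sensing genes only INSIG2, the related sensor, showed the order, with 755 to 1166 in HMLE against at most 714 in the cancer lines. SREBF2, the gene of SREBP2, read between 195 and 264 in all 8 arrays, and was highest in untransfected SUM159. Of 8 uptake and handling genes STARD4, a sterol carrier, and NPC1, which exports cholesterol from lysosomes, showed it. STARD4 was above the detection limit only in HMLE Gcnt2 (166), so its order rests on values near background. NPC1 was close, with 2073 in HMLE LacZ against 2065 in MDA-MB231. Of 12 fatty acid genes SCD, a desaturase, showed the order, a share near that of all genes. Differences between the lists were not tested.

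**Figure D2:**
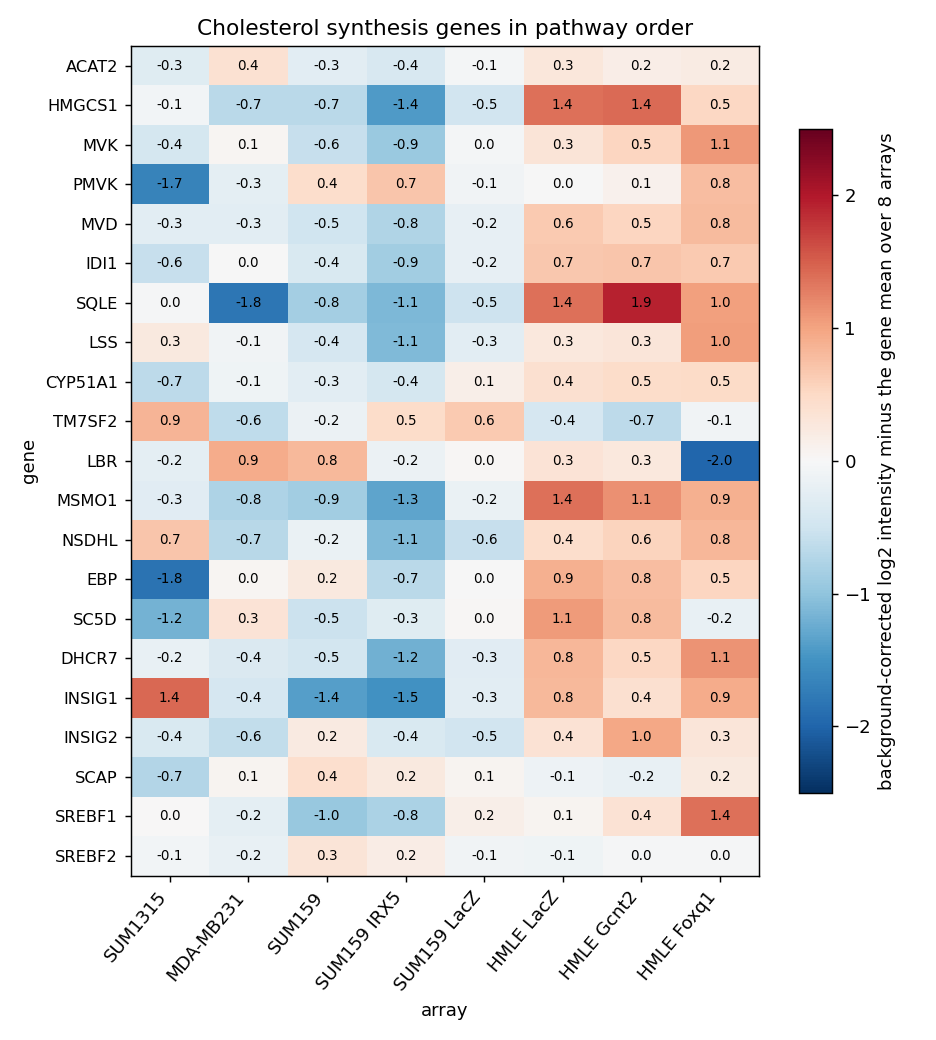
Background-corrected log2 intensity minus each gene's mean over the 8 arrays, for the 16 enzymes and for INSIG1, INSIG2, SCAP, SREBF1 and SREBF2 (rows) in the 8 arrays (columns). Of the 16 enzymes, 10 are higher in all 3 HMLE columns than in every other column, and the averages of the 6 members run from -1.07 in the array labelled IRX5 to 1.02 in HMLE LacZ.

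The second comparison concerns genes downstream of IRX5, read as the array labelled IRX5 against both SUM159 controls. The IRX5 probe itself read 151 in that array, 165 in SUM159 LacZ and 163 in untransfected SUM159. The label was therefore not borne out by the probe, which checks nothing if it lies outside the construct. All 6 cholesterol genes were lower than in SUM159 LacZ, with a median log2 difference of -0.79 against 0.02 over all genes. INSIG1 was 2.36-fold lower, at -1.24. HMGCS1 followed at -0.92, DHCR7 at -0.91, IDI1 at -0.66, SQLE at -0.60 and SC5D at -0.33. One of the 6 was thus at least 2-fold lower, against 1.96% of 10945 genes, and none as much higher, against 1.15%. None of the 6 passed percentile 99 of the yardstick pair.

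Against untransfected SUM159 the differences were smaller. HMGCS1 was at -0.73, DHCR7 at -0.74, IDI1 at -0.48, SQLE at -0.27, INSIG1 at -0.13 and SC5D at 0.22, with a median of -0.37. None of the 6 reached 2-fold, while 3.34% of 11020 genes were as much lower and 2.99% as much higher. The 2 contrasts share the array labelled IRX5. In all, 5 of the 6 genes, all but SC5D, were below both controls, an order shown by 33.5% of 11301 genes. None was above both, against 36.9%. INSIG1 counts here by little, at 144 against 154 in untransfected SUM159.

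Most other enzymes of the pathway were also low in the array labelled IRX5. Of 10 compared, 8 were below both controls (MVK, MVD, LSS, CYP51A1, LBR, MSMO1, NSDHL and EBP), an order shown by 33.5% of all genes. TM7SF2 lay between the controls and PMVK, the phosphomevalonate kinase, was above both, as were 36.9% of all genes. MSMO1 was 2.21-fold lower than in SUM159 LacZ, and its second detected probe differed by -1.03. LSS read 675 in the array labelled IRX5, 1191 in SUM159 LacZ and 1072 in untransfected SUM159, although its dimmer probe was 0.13 higher than in LacZ. By a dimmer probe LBR read 192, 177 and 269 in the same arrays, which is not below both controls. PMVK read 686, 412 and 582 in the same arrays. Among the regulators, SREBF1, the gene of the related factor SREBP1, was at -0.94 against LacZ, with a second probe at -0.92, but the array labelled IRX5 (481) and untransfected SUM159 (432) were close. FASN, the fatty acid synthase, read 8191 against 15010 in LacZ and 11490 in untransfected SUM159.

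The controls themselves were apart in the same direction for every member. In SUM159 LacZ against untransfected SUM159 the 6 genes were 0.17 (DHCR7), 0.19 (IDI1), 0.20 (HMGCS1), 0.33 (SQLE), 0.55 (SC5D) and 1.11 (INSIG1) higher, with a median of 0.26. INSIG1 was 2.15-fold higher, the 1 gene of the 6 past 2-fold, where 2.25% of 10997 genes were as much higher and 1.28% as much lower. Its intensities of 297 and 154 stand at a ratio of 1.92. SUM159 LacZ was thus the higher control for all 6 genes, and the array labelled IRX5 stands closer to the untransfected one.

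**Figure D3:**
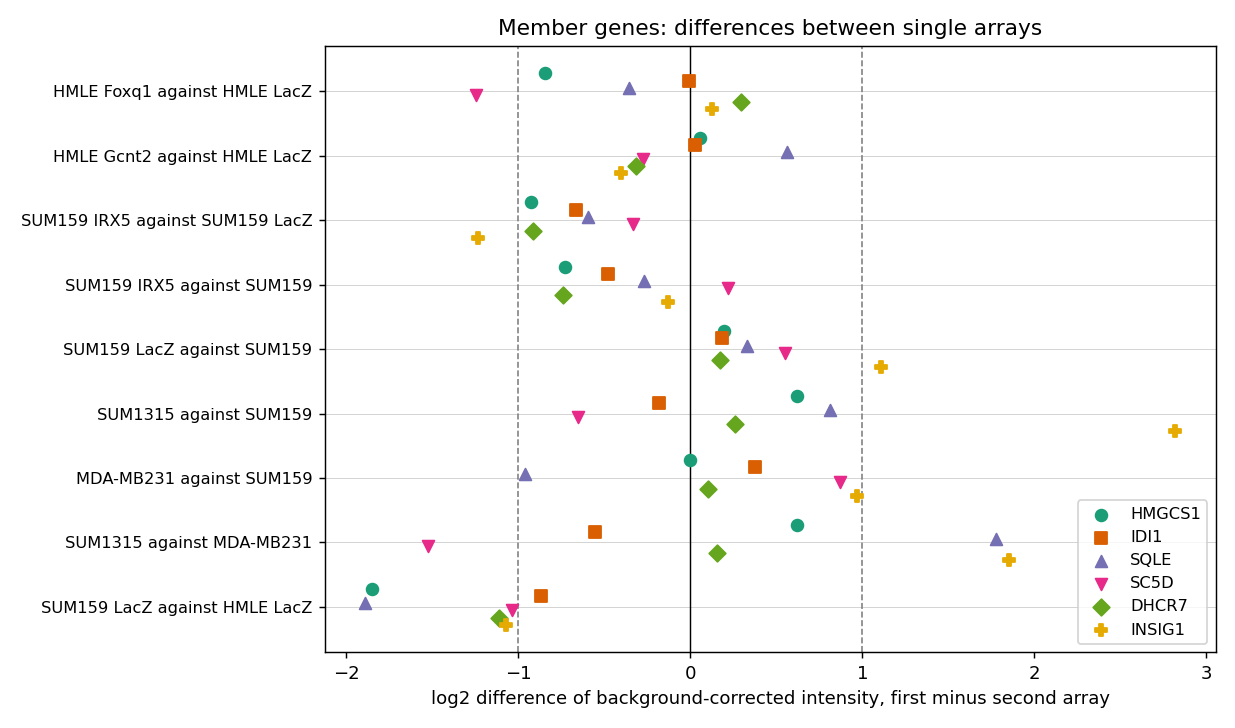
Log2 difference of each of the 6 genes in the 9 comparisons, with dashed lines at 2-fold. All 6 points are below 0 for the array labelled IRX5 against SUM159 LacZ and for SUM159 LacZ against HMLE LacZ, and all 6 are above 0 for SUM159 LacZ against untransfected SUM159.

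The third comparison concerns Foxq1. The FOXQ1 probe read 299 in the array labelled Foxq1 and 1641 in HMLE LacZ, a log2 difference of -2.59. The label was therefore not borne out by this probe, which checks nothing if it lies outside the construct. Every direction here is of the array so labelled. The cholesterol genes did not share a direction. SC5D was 2.37-fold lower, at -1.25, HMGCS1 was at -0.85, SQLE at -0.35 and IDI1 at -0.01. INSIG1 and DHCR7 lay on the other side, at 0.13 and 0.30. The median was -0.18 against 0.09 over all genes. SC5D was the 1 gene of 6 at least 2-fold lower, against 5.49% of 11321 genes, and none was as much higher, against 6.17%.

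Over both enzyme lists the median was 0.03, with LBR and SC5D of 16 enzymes at least 2-fold lower and none as much higher. LBR, a sterol reductase that also anchors chromatin at the nuclear lamina, was 5.01-fold lower, and its second probe was at -1.27. Probes of 1 gene disagreed in this array. MSMO1 was at -0.49 by its brightest probe and at -4.46 by another, which read 144 against 2518 in LacZ. SREBF1 was 2.48-fold higher by one probe and at 0.09 by another. Over all genes with at least 2 probes above an intensity of 500, 90 of 649 (13.9%) had probes over 4-fold apart in this comparison, against 0 of 646 in the yardstick pair and at most 1.58% in the other comparisons. The members have 1 probe each, so no second probe stands beside the values of SC5D and HMGCS1. All 7 epithelial markers compared were lower in the same array, 3 at least 2-fold, with CDH1 6.95-fold and CLDN7, a tight junction claudin, 8.84-fold below LacZ. Of 7 mesenchymal markers 5 (VIM, ZEB2, SPARC, DCN and COL1A2) were at least 2-fold higher and none as much lower, with a median of 1.08. The other 2, CDH2 and FN1, were lower, at -0.88 and -0.70. Of all genes, 6.17% were at least 2-fold higher and 5.49% as much lower. DCN (decorin) was 17.1-fold higher, although its other detected probe differed by 0.15, and CD14 was 2.51-fold higher. The part of these markers in the values of the cholesterol genes was not tested.

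HMLE Gcnt2 carried its label: the probe for GCNT2 transcript NM_145649 read 9104 there and 106 in HMLE LacZ. The cholesterol genes differed little. SQLE was 0.56 higher, HMGCS1 0.06 and IDI1 0.03, while INSIG1 was at -0.40, DHCR7 at -0.32 and SC5D at -0.28, with a median of -0.12. None of the 6 reached 2-fold in either direction, and neither did any of the 16 enzymes. Of all 10942 genes, 0.274% were as much higher and 0.777% as much lower. The mesenchymal markers were lower in this array: all 7 compared lay below LacZ, 4 of them (VIM, CDH2, SPARC and DCN) at least 2-fold, with a median of -1.21.

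The last comparisons concern the untransfected basal-like lines. Here the 6 genes had no common direction. INSIG1 was 7.05-fold higher in SUM1315 than in SUM159 (5.84 as a ratio of intensities), a log2 difference of 2.82 that exceeded percentile 99 of the yardstick pair (2.10). Of all genes, 2.83% differed as far as INSIG1 in this comparison, in either direction. SQLE was at 0.81, HMGCS1 at 0.62, DHCR7 at 0.26, IDI1 at -0.18 and SC5D at -0.65. INSIG1 alone of the 6 was 2-fold higher, against 9.82% of 11430 genes, and none was as much lower, against 8.83%.

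In MDA-MB231 against SUM159 none of the 6 reached 2-fold, where 7.34% of 11302 genes were as much higher and 6.96% as much lower. INSIG1 was at 0.97, SC5D at 0.87, IDI1 at 0.37, DHCR7 at 0.10 and SQLE at -0.96, and the intensities of HMGCS1 were almost equal. In SUM1315 against MDA-MB231, INSIG1 was 3.61-fold and SQLE 3.43-fold higher, and SC5D was 2.88-fold lower. Of these, SQLE exceeded percentile 99 of the yardstick pair (1.39). These are 2 of 6 genes higher, against 10.8% of 11415 genes, and 1 of 6 lower, against 10.9%. Of all genes, 7.63% differed as far as SQLE in this comparison, in either direction. Other enzymes also went both ways between these lines: EBP was 3.69-fold and PMVK 2.68-fold lower in SUM1315, and TM7SF2 was 2.82-fold and NSDHL, a sterol dehydrogenase, 2.62-fold higher. LBR was also lower in SUM1315, at -1.16 by its brightest probe and at -0.16 by its other detected probe.

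Cells that hold surplus cholesterol export it through the transporters ABCA1 and ABCG1, and APOE accepts it; these are targets of the sterol receptor LXR, whose gene NR1H3 was also measured. ABCA1 read 137, below the limit, in SUM1315, 1235 in MDA-MB231, 312 in SUM159, 1367 in the array labelled IRX5, 1429 in SUM159 LacZ, 2124 in HMLE LacZ, 2048 in HMLE Gcnt2 and 3013 in the array labelled Foxq1. It was thus highest in HMLE, where 10 of the 16 synthesis enzymes were also highest by their brightest probes. Of 5 efflux genes ABCA1 alone was higher in all HMLE arrays than in all cancer line arrays, against 7.63% of all genes. Within SUM159 the LacZ array was 4.98-fold and the array labelled IRX5 4.76-fold above the untransfected one, so the transfected arrays were alike.

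ABCG1 read 530 in the array labelled IRX5, 251 in SUM159 LacZ and 181 in untransfected SUM159, 2.26-fold and 3.32-fold apart. Its other 3 detected probes differed from LacZ by -0.50, 0.14 and 1.63 and do not share a direction. In the array labelled Foxq1, APOE read 2183 against 213 in HMLE LacZ, 11.8-fold higher, and ABCG1 was 2.07-fold higher, with other probes between -0.01 and 1.37. NR1H3 read 561 there against 312. All 4 efflux genes compared were higher in that array than in LacZ, with a median of 0.98.

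**Figure D4:**
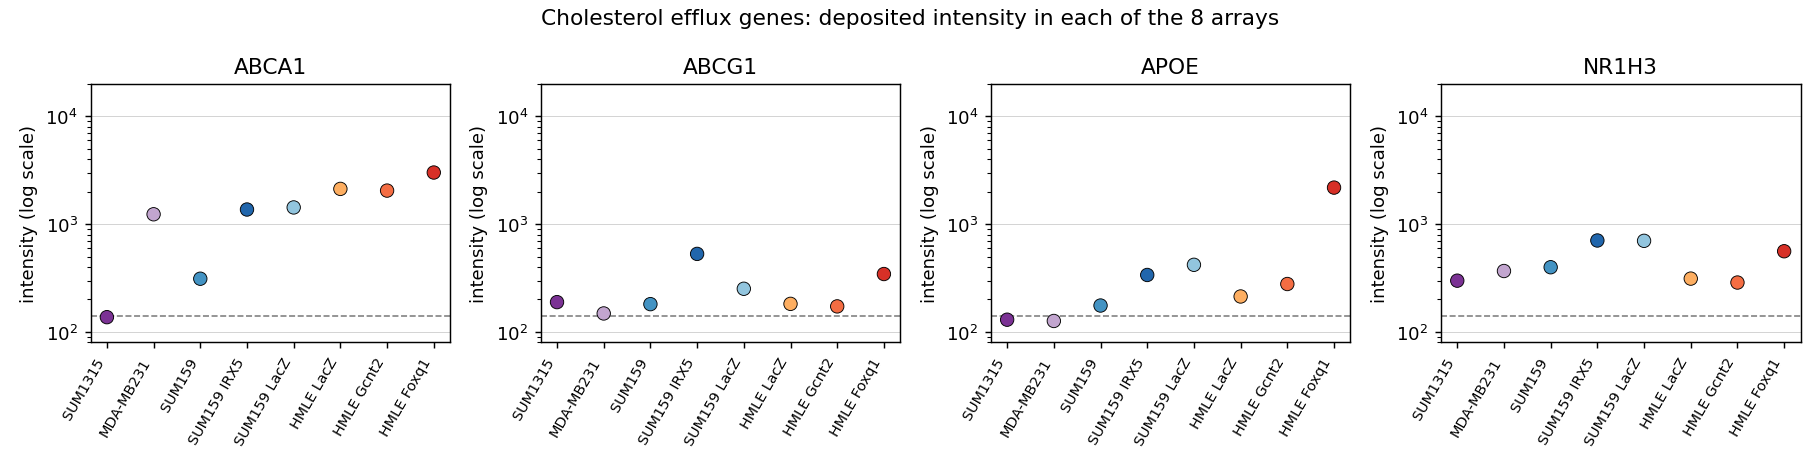
Deposited intensity (log scale) of the 4 efflux genes in the 8 arrays, with the detection limit of 141 as a dashed line. ABCA1 is lowest in SUM1315 (137) and highest in the array labelled Foxq1 (3013), where APOE (2183) also stands above all other arrays.

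Of 4864 genes above the limit in all 8 arrays and with a sufficient span, those nearest to the members' average profile were RBMS1 (RMS distance 0.157 on the log2 scale), RNF19B (0.227), MSMO1 (0.231), MVD (0.261), CDKN2B (0.263), MYD88 (0.271), LPAR2 (0.272) and KANK1 (0.273). RBMS1, an RNA-binding protein gene, read 1763 in HMLE LacZ, 1521 in Gcnt2 and 1136 in Foxq1, and from 400.03 in the array labelled IRX5 to 870.02 in SUM1315 in the cancer lines. MSMO1 and MVD, pathway enzymes outside the member list, ranked 3 and 4 in this order. MVK ranked 72, LSS 105, NSDHL 126 and CYP51A1 197. EBP at 1253, PMVK at 3343, TM7SF2 at 3733 and LBR at 4401 were far from it. The likeness rests on 8 arrays in which HMLE stands against the cancer lines.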

How the data were processed

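The authors deposited 1 normalized intensity per probe and array for 24526 probes, on a linear scale; GenomeStudio, lumi 1.14 and R 2.11.1 are named, per the submitters' processing notes. Once sorted, the arrays' deposited intensities had a coefficient of variation no higher than 1.27%, as quantile normalization leaves them; any background correction by the authors is not stated. A second table was left out because no label maps its 16 columns to samples, so no detection p-value could be used, and neqc could not be run.

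Symbols came from the platform annotation (21834 probes named, 2692 not), and 21813 were updated through RefSeq. The normexp correction of limma 3.58.1 (R 4.3.3, offset 50) was applied to the deposited intensities before taking log2. A gene is its probe with the highest mean. The detection limit of 141 mirrors the spread below the mode of 110 (109.516 before rounding), at a tail of 0.01. Comparison of a gene required 1 array of the pair above the limit, and a dimmer array was set to the limit for a fold. Python 3.11.15, pandas 2.3.3 and numpy 2.4.6 did the counting, which was tested on simulated data.

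Groups came from the labels. Genes at least 2-fold apart were counted, with no test; the yardstick pair was read in 10 intensity bins. Members, gene lists and settings were chosen with earlier results of these data known. Named genes were all members, the enzymes and sterol sensing genes, up to 4 genes per comparison of the uptake, fatty acid and efflux lists that were 2-fold apart, the introduced genes and markers, and the 8 genes nearest to the members' average profile with a span large enough beside it. FASN, STARD4 and values of listed genes under 2-fold were named after their values were seen. Alternatives were no background correction, cyclic loess, the mean of detected probes, and a limit at a tail of 0.05.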

Additional observations from a re-analysis of the deposited data

How the results depend on the processing

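All 54 differences of members kept their direction without background correction and with cyclic loess on top. They moved by less than 0.47 on the log2 scale, the SD of the yardstick pair. INSIG1 in the array labelled Foxq1 against HMLE LacZ fell from 0.13 to 8e-05 with cyclic loess, so it has no clear direction. The other settings were the mean of detected probes and the limit at a tail of 0.05. These could not move a member, since each has 1 probe, above the limit in all arrays. The widest shift was 0.27, for INSIG1 in SUM1315 against SUM159 without background correction. The 9 medians of the members kept their sign and moved by at most 0.07. Of 28 counts, 27 stayed within 1.5 times their value under these 4 settings. The exception was SUM159 LacZ against untransfected SUM159, where without background correction 0 members, not 1, were at least 2-fold apart, since INSIG1 stands at 1.92-fold there. No paired analysis was possible because each group had 1 array. No replicate could be left out for the same reason. Each member rests on 1 probe, and INSIG1 in SUM159 is close to the limit, where folds are least certain.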

Other observations

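Fatty acid genes are known targets of SREBP1. SCD, the stearoyl-CoA desaturase, read 10055 in SUM1315, 4453 in MDA-MB231, 3330.2 in SUM159, 6813 in the array labelled IRX5, 7987 in SUM159 LacZ, 14462 in HMLE LacZ, 11464 in HMLE Gcnt2 and 17778 in the array labelled Foxq1. It was 3.04-fold higher in SUM1315 than in SUM159, and 2.41-fold higher in SUM159 LacZ than in untransfected SUM159. FADS1, a desaturase of polyunsaturated fatty acids, was highest in the array labelled Foxq1, with 5173 against 1110.2 in HMLE LacZ (4.76-fold), and second in MDA-MB231 with 3781. ACSS2, which makes acetyl-CoA from acetate, was 2.62-fold higher in the array labelled Foxq1 by its brightest probe, while its other detected probe differed by 0.04.

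Of 7 uptake and storage genes compared, 2 were at least 2-fold apart in SUM1315 against SUM159 (SOAT1 higher, SCARB1 lower), 2 in MDA-MB231 against SUM159 (NPC1 and SOAT1 higher) and 1 in SUM1315 against MDA-MB231 (SCARB1 lower). Of all genes, 9.82% were as much higher and 8.83% as much lower in SUM1315 against SUM159. The shares were 7.34% and 6.96% in MDA-MB231 against SUM159, and 10.8% and 10.9% in SUM1315 against MDA-MB231. With 7 genes, the counts were not told apart from these shares. SOAT1, which esterifies cholesterol for storage, read 645 in both SUM1315 and MDA-MB231 and 296 in untransfected SUM159, 2.32-fold lower there. SCARB1, the high-density lipoprotein receptor, read 545 in SUM1315, 1758 in MDA-MB231 and 1978 in SUM159. In HMLE, VLDLR, a lipoprotein receptor, read 326 in the array labelled Foxq1 against 147 in HMLE LacZ, a 2.54-fold difference.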
